A study of Homo sapiens with 2 samples.

Results

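The loci of 10 claudin genes (CLDN1, CLDN3, CLDN4, CLDN5, CLDN7, CLDN8, CLDN10, CLDN11, CLDN12 and CLDN18) were examined for open chromatin in CAMA-1, a human epithelial cell line from a breast cancer. These genes are 10 of the 20033 protein-coding genes annotated by GENCODE release 44 on chromosomes 1 to 22, X and Y. They were chosen by name, and the rule uses no measured value, but the choice was made with earlier results of these data known. A locus was the annotated gene with 20 kb on either side, and 127 of the 245736 peaks of replicate 1 and 132 of the 259745 peaks of replicate 2 overlapped one of the loci. Accessibility was measured by ATAC-seq, which uses the enzyme Tn5 to cut open chromatin and tag it with adapters for sequencing, in 2 biological replicates of 50000 cells each. Both replicates came from untreated CAMA-1 cells grown as adherent cultures in DMEM with fetal bovine serum, so they form a single condition of 1 cell line and no treatment or cell type was compared. The authors called peaks in each replicate on its own and deposited the fold enrichment of each peak. It was taken here as the ratio of the stacked reads at the highest base to the background of the library. The addition of 1 read to each of these was assumed. All positions are on hg38.

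Claudins are membrane proteins with a pair of extracellular loops that join into strands between neighbouring cells and form the seal or the pores of tight junctions. Which claudins a cell makes sets how permeable its junctions are to ions and solutes, and the family divides by tissue. CLDN1, CLDN3, CLDN4, CLDN7, CLDN8, CLDN10 and CLDN18 are known from epithelia, CLDN5 from the endothelium of blood vessels, and CLDN11 from the myelin of oligodendrocytes and from Sertoli cells, whereas CLDN12 is found in many tissues. Low levels of CLDN3, CLDN4 and CLDN7 define the claudin-low group of breast cancers.

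Of the 10 genes, 8 had a TSS peak, a peak within 1 kb of any of their annotated transcription start sites (TSSs), in both replicates, beside 79.3% of all protein-coding genes. The principal TSS, taken as the start of the MANE Select transcript, lay itself under a peak in both replicates in 6 of the 10 genes, beside 65.8% of the protein-coding genes that have such a transcript. This criterion, here and in the gene lists below, was chosen after the data had been seen. A TSS peak of at least 20-fold enrichment in both replicates was present in 6 genes, beside 64.5% of all. These counts were near the background of all genes. Among the 7 epithelial claudins, 6 had a TSS peak, 5 had the principal TSS under a peak, and 5 passed 20-fold. Of the endothelial and neural claudins, CLDN5 and CLDN11, 1 had a TSS peak, 0 had the principal TSS under a peak and 0 passed 20-fold. CLDN12 passed all of these criteria. With 7 and 2 genes in these groups, and with genes that are not replicates of each other, the difference between the groups was not tested.

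**Figure D1:**
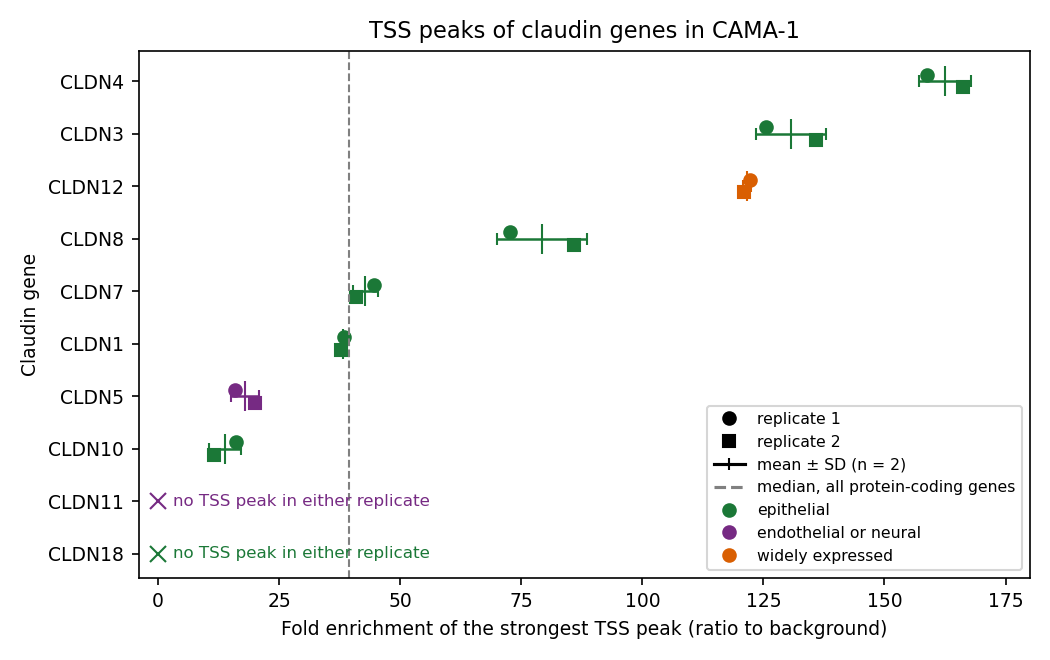
Fold enrichment of the strongest TSS peak of each claudin gene (x axis, ratio to background) in replicate 1 (circles) and replicate 2 (squares), with the mean ± SD (n = 2) and the median of all protein-coding genes, 39.4, as a dashed line. CLDN4, CLDN3, CLDN12, CLDN8 and, by a little, CLDN7 lie above the median in both replicates, CLDN1 lies just below it, CLDN5 and CLDN10 lie well below it, and CLDN11 and CLDN18, marked by crosses, had no TSS peak.

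CLDN4, a claudin that limits the passage of sodium in many epithelia, had the strongest TSS peak of the 10 genes. Its fold enrichment was 159 in replicate 1 and 166 in replicate 2, with a mean of 163 ± 5.32 (SD, n = 2). The mean exceeded that of 97.8% of all protein-coding genes, where genes without a TSS peak counted as 0 and the median was 39.4. The deposited values are whole multiples of 1 step per library. Under the assumed ratio, this gives the height of a peak as the number of reads stacked at its highest base. For CLDN4 it was 689 reads in replicate 1 (95% exact Poisson interval 639 to 742) and 751 in replicate 2 (698 to 807). These intervals cover counting error only. The peak did not lie at the principal TSS at position 73830996 of chromosome 7 but at a group of 3 annotated starts that begins 3252 bp upstream, at chr7:73826785-73828603 in replicate 1. The principal TSS had a peak of its own, of 121-fold in replicate 1 and 128-fold in replicate 2, within a merged region of 5296 bp that holds the single coding exon of the gene. The remaining start, 31454 bp upstream, had only a weak peak nearby, of 4.37-fold and 4.20-fold.

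CLDN3, which tightens epithelial junctions and lies next to CLDN4 on chromosome 7, ranked after it. Its TSS peak reached 126-fold in replicate 1 and 136-fold in replicate 2, a mean of 131 ± 7.17 (SD, n = 2), above 94.4% of genes. The heights were 545 reads (500.2 to 593) and 613 reads (565 to 664). The region ran over the whole of this short gene, at chr7:73766508-73771332, and was 4825 bp wide in replicate 1 and 2410 bp wide in replicate 2. CLDN8, a claudin best known from the distal nephron, has 1 annotated start, which was under a peak of 72.7-fold in replicate 1 and 85.8-fold in replicate 2 (mean 79.3 ± 9.25, SD, n = 2). That peak stood above 78.0% of all genes and above 89.1% of the genes on chromosome 21.

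CLDN7 and CLDN1 were near the middle of the genome. CLDN7, known from the basolateral membrane of epithelial cells as well as from their junctions, had a TSS peak of 44.6-fold in replicate 1 and 40.9-fold in replicate 2, above 52.7% of genes. CLDN1, without which the barrier of the skin fails, had one of 38.4-fold and 37.8-fold, above 48.8% of genes. The CLDN1 peak cannot be assigned to CLDN1 alone: an annotated start of CLDN16, another claudin, lies 95 bp from the TSS of CLDN1, and the same peak counts for both, although it does not cover the principal TSS of CLDN16. The CLDN7 peak likewise also lies within 1 kb of the start of an unnamed coding gene (ENSG00000262302) that overlaps CLDN7.

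CLDN10 and CLDN18, both known for alternative first exons that give proteins with different permeability or tissue, were the epithelial claudins without a peak over any annotated start. The 3 starts of CLDN10 are spread over the gene. At the most 5′ start the nearest peak was at 2528 bp in replicate 1 and at 2661 bp in replicate 2. At the principal TSS the nearest was 6374 bp away in replicate 1, and in replicate 2 it was a weak peak of 5.97-fold at 960 bp. The TSS peak counted for CLDN10, of 16.1-fold and 11.5-fold (mean 13.8 ± 3.26, SD, n = 2), was an intronic peak 699 bp from the remaining start, which lies 7430 bp downstream of the principal TSS. CLDN18, whose forms mark lung and stomach epithelium, had no peak within 1 kb of any of its 3 starts in either replicate. The peak closest to its principal TSS was at 28553 bp in replicate 1 and at 16665 bp in replicate 2, where it was only 3.32-fold.

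CLDN5, the main claudin of the blood-brain barrier, had a weak peak near its starts, of 15.9-fold in replicate 1 and 19.9-fold in replicate 2 (mean 17.9 ± 2.85, SD, n = 2), above 33.0% of genes. Its height was 68 reads (52.8 to 86.2) and 89 reads (71.5 to 110). This peak overlapped the coding exon and ended downstream of the principal TSS, 293 bp from it in replicate 1 and 245 bp in replicate 2. It also lies within 1 kb of a start of ENSG00000287652, which is not annotated as protein-coding, so it cannot be assigned to CLDN5 alone. A further 3 regions of mean 6.06-fold to 8.90-fold lay within 1 kb of its starts. CLDN11, which forms the tight junctions between the layers of the myelin sheath, had no peak within 1 kb of any of its 6 annotated starts. The nearest peak lay 4414 bp from its principal TSS in replicate 1 and 4402 bp from it in replicate 2, with 12.9-fold and 15.5-fold enrichment. A gene without a peak is one in which no site passed the peak caller at this depth, where the lowest peak of either library had a height of 11 reads, and its chromatin was not shown to be closed.

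CLDN12, which lacks the C-terminal motif by which most claudins bind scaffold proteins, had a TSS peak close to that of CLDN3 and weaker than that of CLDN4. It was 122-fold in replicate 1 and 121-fold in replicate 2 (mean 122 ± 0.865, SD, n = 2), above 92.8% of genes. This peak covered the main group of 10 starts, and the other 5 starts had no peak within 1 kb.

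In the order CLDN4, CLDN3, CLDN12, CLDN8, CLDN7, CLDN1, CLDN5 and CLDN10, the replicate values of neighbours overlapped only for CLDN5 and CLDN10. By counting error the neighbours were closer. The intervals of the heights overlapped in both replicates for CLDN3 and CLDN12 and for CLDN7 and CLDN1, and in 1 replicate for CLDN5 and CLDN10. The other 4 steps between neighbours with a peak had intervals that did not overlap in either replicate. Each gene was also set beside its neighbourhood. Among protein-coding genes within 5 Mb, CLDN4 stood above 93.3%, CLDN3 above 88.0%, CLDN8 above 84.8%, CLDN12 above 83.6%, CLDN7 above 67.4%, CLDN1 above 49.1%, CLDN5 above 37.7% and CLDN10 above 26.7%. The genomic copy number of the loci was not analysed here.

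Promoter sequences are shown for starts of CLDN4, CLDN3, CLDN11, CLDN10 and CLDN18, as the RefSeq table on GRCh38.p14 gives them. It holds 12 promoters for 8 of the 10 genes, each from 250 bases before to 50 after a start, and CLDN5 and CLDN8 had no entry. Vertebrate promoters are often rich in CpG dinucleotides, and such promoters are open in most tissues. In the table, 62.9% of 21613 promoters of protein-coding genes had the start under a peak in both replicates, with 85.7% of those with at least 30 CpGs in 300 bases and 19.6% of those with at most 5. These limits of 30 and 5 were chosen after the claudin promoters had been seen. CpGs are in capitals in the following lines, which give the 250 bases before a start, 5′ to 3′ in the direction of the gene. For CLDN4 the RefSeq table holds the principal start only, and not the upstream starts that had the strongest peak. The upstream bases of this start lie in an exon of a longer transcript, so only the last 30 bases are given.

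CLDN4 (chr7:73830966-73830995, + strand, start open): ccatataactgctcaacctgtcccCGagag
CLDN3 (chr7:73770271-73770520, - strand, start open): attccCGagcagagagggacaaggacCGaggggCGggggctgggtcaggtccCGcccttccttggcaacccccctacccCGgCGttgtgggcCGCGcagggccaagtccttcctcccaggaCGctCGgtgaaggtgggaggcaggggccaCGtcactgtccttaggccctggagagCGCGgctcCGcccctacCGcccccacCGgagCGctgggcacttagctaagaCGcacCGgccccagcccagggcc
CLDN11 (chr3:170418618-170418867, + strand, no peak at the start): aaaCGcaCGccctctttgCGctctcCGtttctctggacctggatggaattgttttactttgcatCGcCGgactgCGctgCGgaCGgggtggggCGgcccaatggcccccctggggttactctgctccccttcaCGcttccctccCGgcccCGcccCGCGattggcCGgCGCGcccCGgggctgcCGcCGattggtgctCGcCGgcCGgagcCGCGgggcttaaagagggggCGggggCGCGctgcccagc
CLDN10 (chr13:95552470-95552719, + strand, no peak at the start in both replicates): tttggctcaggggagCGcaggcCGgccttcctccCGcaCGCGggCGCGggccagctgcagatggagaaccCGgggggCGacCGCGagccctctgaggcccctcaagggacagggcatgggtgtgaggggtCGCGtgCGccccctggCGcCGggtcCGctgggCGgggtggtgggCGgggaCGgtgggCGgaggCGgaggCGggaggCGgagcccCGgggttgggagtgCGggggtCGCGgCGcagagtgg
CLDN18 (chr3:138009915-138010164, + strand, no peak at the start): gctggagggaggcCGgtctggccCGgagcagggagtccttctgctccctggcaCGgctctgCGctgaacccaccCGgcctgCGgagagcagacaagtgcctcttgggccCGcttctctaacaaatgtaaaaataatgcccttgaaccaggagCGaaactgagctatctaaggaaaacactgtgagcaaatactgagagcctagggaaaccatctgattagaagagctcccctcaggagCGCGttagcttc

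Several claudin promoters were exceptions to this division. The promoter at the principal TSS of CLDN4 had 5 CpGs in its 300 bases, fewer than most (17.9% of promoters had still fewer). Its start was under a peak of more than 100-fold in both replicates. The CLDN11 promoter had 36 CpGs, more than 83.6% of promoters, and its start was under no peak. The principal CLDN10 promoter also had 36 CpGs and was under no peak. Among the other open starts, CLDN1 had 31 CpGs, CLDN7 30 and 10 at its pair of listed starts, CLDN3 24 and CLDN12 15. The remaining starts without a peak had 12 (the upstream start of CLDN10), 3 (the downstream start of CLDN11), and 8 and 15 (CLDN18). The median of all promoters was 21.

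Short motifs were counted on both strands of the same 300 bases. The E-box CAGGTG, the sequence bound by repressors of epithelial genes such as SNAI1 and ZEB1, was present in 3 of the 12 claudin promoters and in 19.9% of all promoters. The promoter at the principal TSS of CLDN7 alone had 5 copies, and its start was open. The GC box GGGCGG was in 8 of 12, beside 56.8% of all, with 6 copies at CLDN3. The CCAAT box was in 4 of 12, beside 34.9%, with 3 copies at CLDN11. The TATA box TATAAA and the grainyhead motif AACCNGTT were in 0 of 12, beside 9.45% and 1.65% of all promoters. The AP-2 motif GCCNNNGGC was in 3 of 12, beside 27.5%, the FOX motif TGTTTAC in 1, beside 2.87%, and the palindromic oestrogen response element with a spacer of 3 bases in 0, beside 0.0416%. These counts were not tested, and a match is a string of letters and not a bound site.

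**Figure D2:**
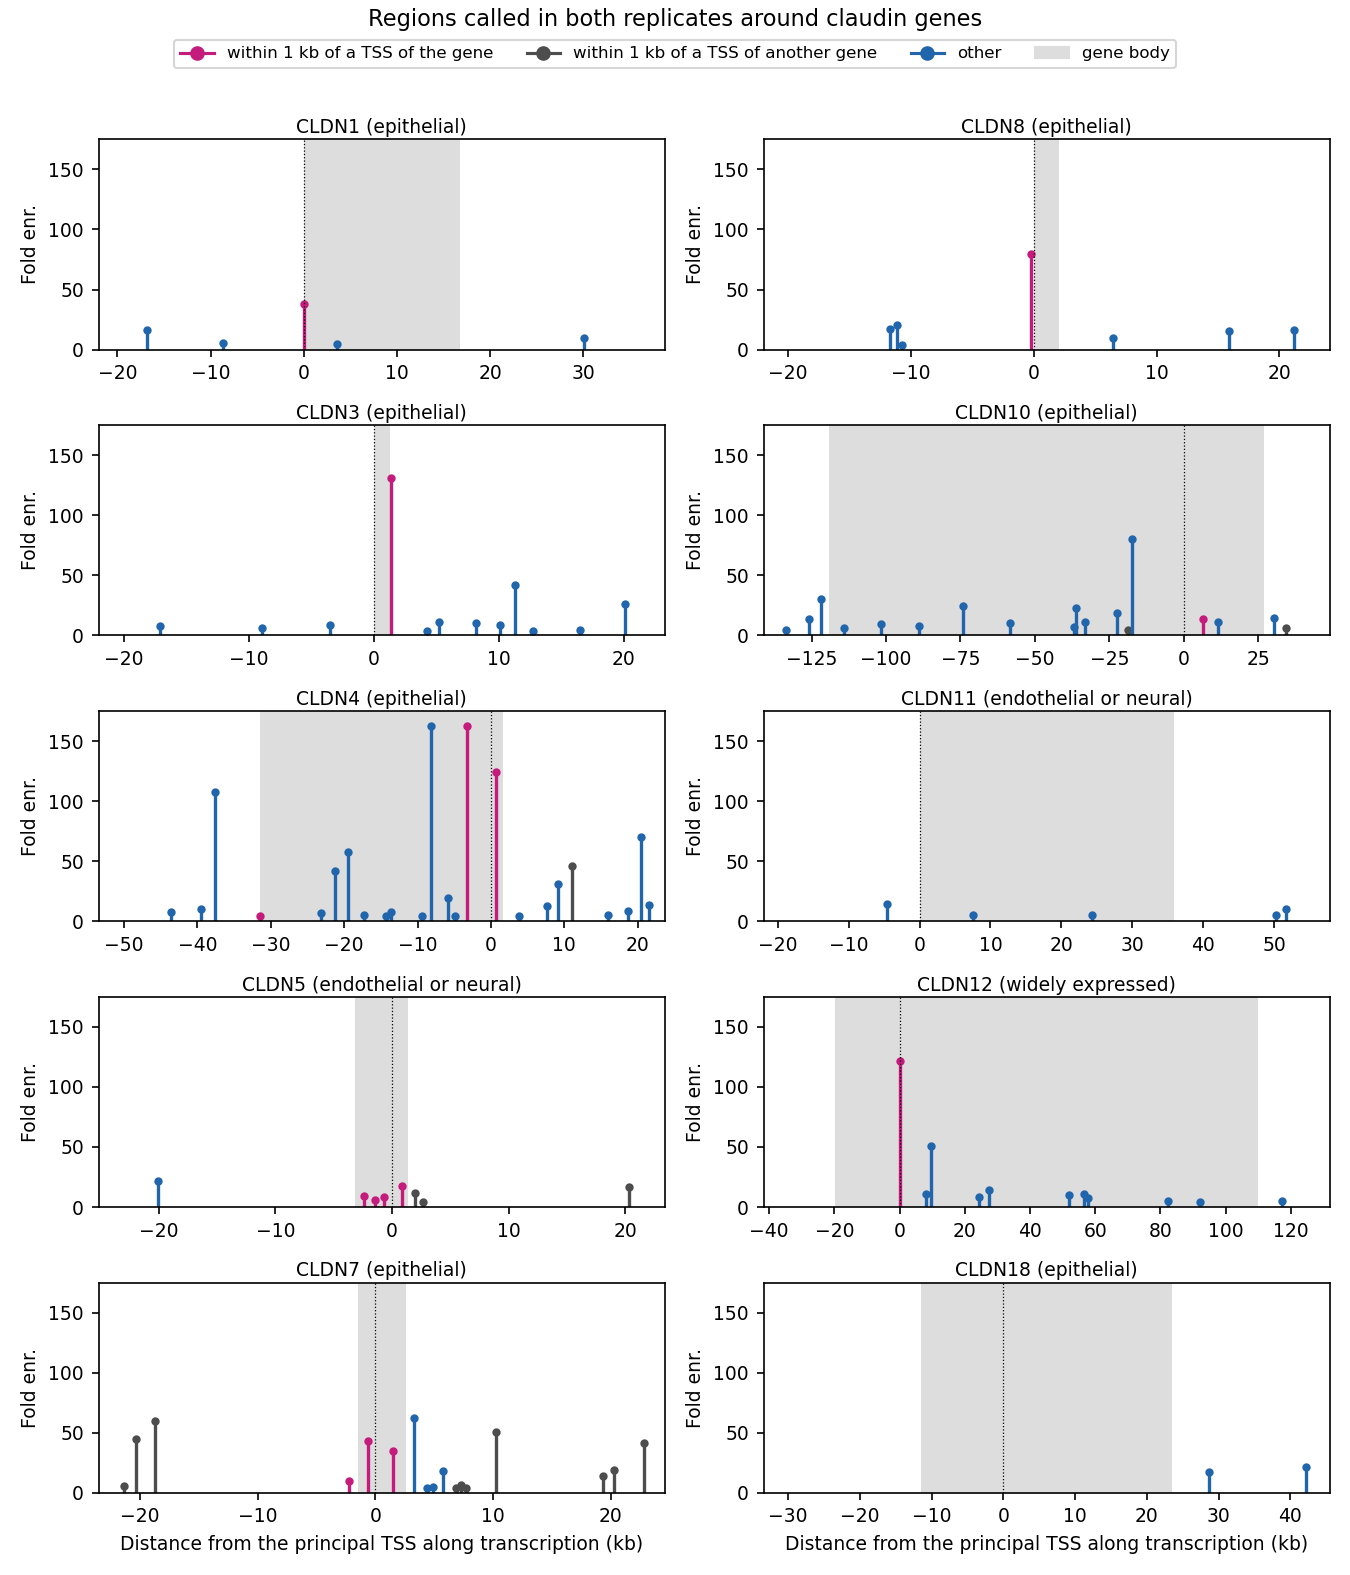
Regions called in both replicates around each claudin gene, placed by the distance of the region's midpoint from the principal TSS (x axis, kb, positive in the direction of transcription) and by mean fold enrichment (y axis). Grey marks the gene body, pink regions lie within 1 kb of a TSS of the gene, dark grey regions within 1 kb of a TSS of another gene and blue regions at neither. CLDN4 is surrounded by strong regions at and away from its starts, whereas the windows of CLDN11 and CLDN18 hold few, with means of at most 21.3-fold.

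Peaks of both replicates that overlapped were merged into regions. The loci held 143 distinct regions, of which 108 had a peak in both replicates and 35 in 1 replicate only, and 215195 regions were found in both replicates over the genome. All 10 claudin loci held a region in both replicates more than 1 kb from any TSS, beside 92.6% of protein-coding genes, and in 6 of 10 such a region reached 20-fold in both replicates, beside 66.1%. As with the TSS peaks, the counts were near the background. The 108 regions were a little stronger and wider than all regions, with a median of 10.7-fold against 9.84-fold. Their median width was 470.5 bp against 363 bp, and 14 of them (13.0%) reached a mean of 50-fold, beside 9.26% of all regions. Of these 14, 7 lay in the adjoining windows of CLDN3 and CLDN4. Others lay at starts of neighbouring genes, namely CTDNEP1 and ELP5 (50.3-fold) and SLC2A4 (59.9-fold). The excess is thus not a trait of the claudin loci in general, and it was not tested.

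The density of regions differed between the loci by more than 10 times. CLDN7 had 17 regions, or 3.86 per 10 kb, which was more than at 96.3% of protein-coding genes, but 10 of the 17 lay at the starts of other genes, among them PHF23, GABARAP, CTDNEP1, ELP5 and SLC2A4. CLDN4 had 24 regions, or 3.28 per 10 kb (above 92.5% of genes), and only 1 of these lay at the start of another gene, METTL27. CLDN3 had 12, or 2.91 per 10 kb (above 88.5%), and 0 at the start of another gene. Peaks covered 32.3% of the CLDN4 window, 32.3% of the CLDN7 window and 27.0% of the CLDN3 window, against a median of 6.07% over all genes.

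**Figure D3:**
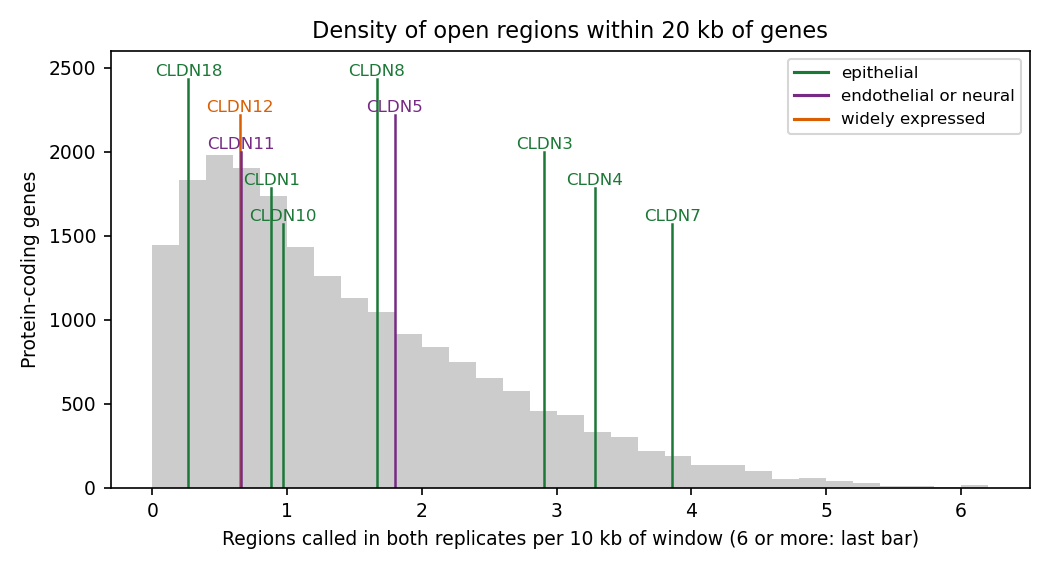
Number of regions called in both replicates per 10 kb of gene and 20 kb either side (x axis) for all 20033 protein-coding genes (grey bars, y axis in genes), with a line for each claudin gene in the colour of its group. CLDN3, CLDN4 and CLDN7 lie between 2.91 and 3.86, far above the median of 1.16, and CLDN18 lies at 0.267.

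CLDN5 and CLDN8 were at intermediate densities, with 8 regions (1.80 per 10 kb) and 7 regions (1.66 per 10 kb). Of the CLDN5 regions, 3 lay at starts of other genes, namely CDC45, a gene of DNA replication, and ENSG00000287652. CLDN10 had 18 regions over its long window (0.967 per 10 kb), 2 of them at starts of other genes, CLDN10-AS1 and DZIP1. CLDN1 had 5 regions (0.881 per 10 kb), CLDN11 5 (0.659) and CLDN12 11 (0.648). The lowest was CLDN18, with 2 regions in 74921 bp (0.267 per 10 kb, above 10.9% of genes). Both of these lay downstream of the gene, and the gene body of CLDN18 held no region found in both replicates.

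The windows of CLDN3 and CLDN4 overlap on chromosome 7, at chr7:73779542-73790270. The principal TSSs are 60.7 kb apart, and the joined stretch, chr7:73748997-73852690, is 104 kb long and held 35 regions that covered 33.1% of it. Of these regions, 12 reached a mean of 20-fold and 7 reached 50-fold. Since the windows overlap and share 1 region found in both replicates, the loci of CLDN3 and CLDN4 are not independent of each other.

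The strongest region away from any TSS was also at CLDN4. It lay in an intron of the longest annotated form, 8.23 kb upstream of the principal TSS, at chr7:73821849-73823681, and reached 164-fold in replicate 1 and 161-fold in replicate 2, as high as the TSS peak of the gene. The strongest such region of CLDN4, by its lower replicate, exceeded that of 99.3% of protein-coding genes. Further regions at CLDN4 lay 37.6 kb upstream (109-fold and 107-fold), 20.5 kb downstream (72.7-fold and 67.2-fold), and 19.5 kb upstream (56.6-fold and 58.6-fold). CLDN10, with no peak over its starts, nevertheless had an intronic region of 77.5-fold and 82.7-fold, 17.3 kb upstream of the principal TSS at chr13:95535017-95535895, above the strongest such region of 86.5% of genes. No other region of the CLDN10 window passed 50-fold.

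The middle 300 bases are shown for the strongest intronic region of CLDN4 and that of CLDN10. The region 37.6 kb upstream of CLDN4, stronger than that of CLDN10, is not shown. Motif matches are in capitals: the GC box, AP-2 and AP-1 (TGACTCA or its complement). AP-1, a dimer of FOS and JUN proteins, was added to the motifs after the sequences had been seen.

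CLDN4 intron (chr7:73822615-73822914, + strand): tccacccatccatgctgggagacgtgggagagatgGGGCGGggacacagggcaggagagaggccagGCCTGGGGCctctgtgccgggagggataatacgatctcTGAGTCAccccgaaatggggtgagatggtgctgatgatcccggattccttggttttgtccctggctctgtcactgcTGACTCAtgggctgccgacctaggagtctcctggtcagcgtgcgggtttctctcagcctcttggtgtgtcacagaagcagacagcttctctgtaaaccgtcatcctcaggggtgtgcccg
CLDN10 intron (chr13:95535306-95535605, + strand): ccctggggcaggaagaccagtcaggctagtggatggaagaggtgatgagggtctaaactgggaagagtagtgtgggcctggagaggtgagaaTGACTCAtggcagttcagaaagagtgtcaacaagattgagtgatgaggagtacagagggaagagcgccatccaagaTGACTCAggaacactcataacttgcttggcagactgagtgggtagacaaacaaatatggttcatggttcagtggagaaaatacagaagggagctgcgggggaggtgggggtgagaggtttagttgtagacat

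Each held 2 copies of the AP-1 motif, which was present in 9.66% of the middle 300 bases of all regions found in both replicates. Because the motif was picked from these sequences, that share is a description and gives no support. Of the 6 strongest claudin regions away from starts, these intronic regions were the only 2 with the motif. The E-box was in 3 of the 6, beside 30.4% of all regions. Among the promoters, AP-1 was in 1 of 12, that of CLDN4, beside 4.03% of all promoters.

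Elsewhere, regions away from starts were weaker. CLDN7 had one of 63.3-fold and 61.9-fold 3.24 kb downstream of its principal TSS, just past the end of the gene. CLDN12 had one of 51.5-fold and 49.5-fold that overlapped its coding exon, 9.53 kb downstream of its principal TSS. The strongest at CLDN3 lay 11.3 kb downstream, with 39.6-fold and 43.6-fold. The strongest by mean in the windows of CLDN1, CLDN5, CLDN8, CLDN11 and CLDN18 had means of 16.5, 21.4, 20.8, 14.2 and 21.3.

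**Figure D4:**
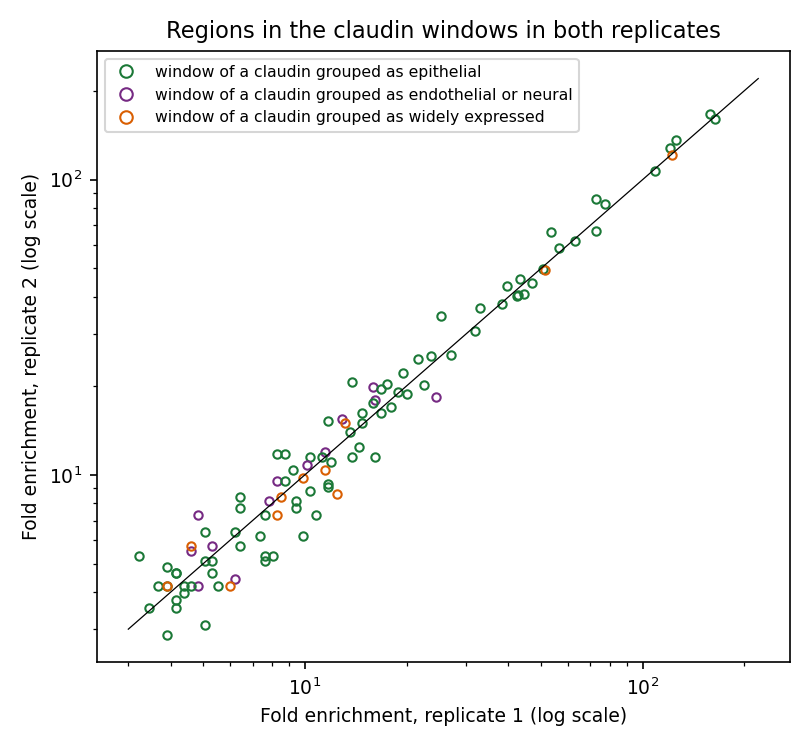
Fold enrichment in replicate 1 (x axis, log scale) and replicate 2 (y axis, log scale) of the 108 regions found in both replicates, coloured by the group of the claudin whose window holds them, with the line of equal values. The points follow the line over the whole range, with ratios from 0.612 to 1.65.

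The replicates gave similar values in the claudin loci. Of the 127 peaks of replicate 1, 114 (89.8%, 95% Wilson interval 83.3 to 93.9) overlapped a peak of replicate 2 by at least 1 bp, beside 90.2% of all its peaks. Of the 132 peaks of replicate 2, 110 (83.3%, 76.1 to 88.7) overlapped a peak of replicate 1, beside 84.7%. These intervals cover counting error only and treat the peaks as independent, although they share libraries and in part loci. Peaks not found again were weak, with a median of 4.37-fold and a maximum of 5.29-fold in replicate 1, and a median of 4.20-fold and a maximum of 5.97-fold in replicate 2. Over the 108 regions the ratio of replicate 2 to replicate 1 ranged from 0.612 to 1.65 with a median of 0.997, and Spearman's rho was 0.967 as a description of these regions, which share libraries and in part loci. CLDN18 was the locus least alike in the replicates, with 2 regions in both and 4 weak ones in replicate 2 only.

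The other 14 protein-coding claudin genes were mostly less open. A TSS peak in both replicates was found in 7 of 14, beside 79.3% of all genes, the principal TSS was under a peak in 3 (CLDN9, CLDN14 and CLDN23), and the median over the 14 was 4.50-fold against 39.4-fold over all genes. CLDN6, known from embryonic epithelium, had the highest value of 133-fold, but its own principal TSS was not under that peak, which lies at the starts of neighbouring genes. CLDN16, a claudin of the thick ascending limb of the kidney, followed with the 38.1-fold peak it shares with CLDN1, and CLDN23 with 33.2-fold. The weakest with a peak were CLDN9 at 7.56-fold, CLDN14 at 12.9-fold and CLDN24 at 16.0-fold. CLDN15, CLDN17, CLDN19, CLDN20, CLDN22, CLDN25 and CLDN34 had no TSS peak in both replicates.

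**Figure D5:**
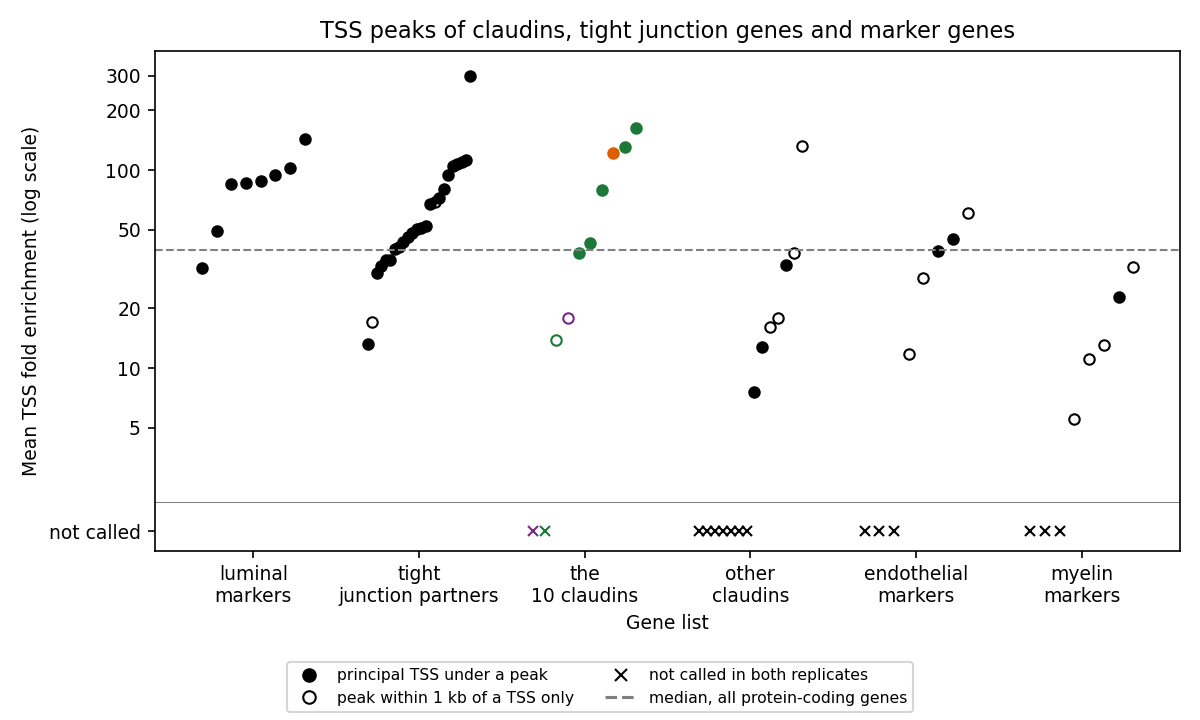
Mean TSS fold enrichment over both replicates (y axis, log scale) of each gene of 6 lists, with filled points where the principal TSS was under a peak, open points where a peak only lay within 1 kb of a start and crosses where there was no TSS peak in both replicates. The dashed line is the median of all protein-coding genes, 39.4, and the claudins keep the colours of their groups. Every tight junction partner and luminal marker had a TSS peak, whereas 7 of the 14 other claudins had none.

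The genes of proteins that claudins work with were set beside them. All 24 tight junction partners had a TSS peak in both replicates, against 79.3% of all genes. The principal TSS was under a peak in 22, against 65.8%, and 22 passed 20-fold, against 64.5%, with a median of 50.8-fold against 39.4-fold over all genes. F11R, the junctional adhesion molecule A, was strongest at 297-fold, followed by MARVELD2, the tricellulin of junctions between 3 cells, at 112-fold and by OCLN, occludin, at 109.8-fold. MARVELD3, a relative of occludin, was weakest at 13.3-fold, then JAM3 at 17.1-fold and AMOTL1 at 30.3-fold. The 10 claudins, by contrast, ranged from no peak to 163-fold.

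Markers of cell types were set beside the labels and the claudin groups, with the same backgrounds of 79.3% of all genes for a TSS peak and 65.8% for a peak over the principal TSS. All 8 luminal breast epithelial markers, among them the keratins KRT8 and KRT18, EPCAM and FOXA1, had the principal TSS under a peak, with a median of 86.6-fold and a range of 31.9 to 143. The weakest was ESR1 at 31.9-fold, below the median of 39.4-fold over all genes. The TSS peak of KRT18 also holds a start of KRT8, and that of FOXA1 a start of TTC6. Of 8 endothelial markers 5 had a TSS peak and 2 (KDR and ESAM) had the principal TSS under it, with a median of 20.1-fold and a range from 0 to 60.9, and PECAM1, TEK and ROBO4 had none. The count of 5 of 8 is not far from the share over all genes. Of 8 oligodendrocyte and myelin markers 5 had a TSS peak in both replicates and 1 (MBP) had the principal TSS under it. The median was 8.33-fold, with a range from 0 to 32.5. OLIG1 and OLIG2 had no TSS peak, and MOBP had one in replicate 2 only, of 4.64-fold. This count of 5 of 8 is likewise not far from the share over all genes. The marker lists overlapped in strength. CDH5, the strongest endothelial marker at 60.9-fold, and MAG, the strongest myelin marker at 32.5-fold, were both above ESR1, although neither had the principal TSS under a peak. CLDN5 and CLDN11, at 17.9-fold and 0, lay below every luminal marker, but so did the epithelial claudins CLDN10 and CLDN18, at 13.8-fold and 0. RNA and protein were not measured in these libraries, so the peaks describe accessibility and not the amount of any claudin.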

How the data were processed

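Peak lists from 2 ATAC-seq replicates of CAMA-1 were used. Per the submitters' processing notes, Trim Galore 0.6.5, Bowtie2 2.3.5.1, MACS2 2.2.6 and hg38 were used, with 1 list per replicate. The MACS2 settings are not given in the sources used here. The authors deposited, per peak, a score, the fold enrichment as a ratio, the −log10 p-value and the −log10 q-value, without read counts or summits. The sequencing depth is not in the lists, so precision was taken from peak heights. The paper reports more total sequences for replicate 2 than for replicate 1, and the lists were not adjusted for this. No peak lay outside the hg38 chromosomes. The deposited folds were multiples of 0.230 in replicate 1 and 0.221 in replicate 2 in 100% of peaks (tolerance 0.001 of a step). The heights were derived from these steps on the assumption that 1 read is added to height and background.

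Peaks were joined to GENCODE release 44 genes with 20 kb flanks. TSS peaks lay within 1 kb of a start, replicates were compared by 1 bp of overlap, and starts within 500 bp were grouped. With 1 condition no test was made. Values are given per replicate and as mean ± SD (n = 2), which covers only the spread between these replicates. The 10 genes, groups, lists and motifs were chosen with earlier results of these data known. The text names the 10 genes, the 3 strongest and 3 weakest called other claudins and tight junction partners, claudins without a TSS peak, genes with a region at a start in a claudin window, and, chosen after their values were seen, genes with the principal TSS under a peak and markers given as examples. Promoters came from RefSeq (GRCh38.p14). Alternatives tried were −log10 q of 10 or more, other TSS distances, TSS choices, flanks, overlaps and strength measures, ranks within chromosomes and 5 Mb, and each replicate alone. Functions were tested on simulated data with Python 3.11.15, numpy 2.4.6 and scipy 1.17.1, and figures were drawn with matplotlib 3.10.9.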

Additional observations from a re-analysis of the deposited data

How the results depend on the processing

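Claudin genes with a TSS peak in each replicate numbered 8, which was 6 to 8 under every alternative tried, and epithelial claudins with one numbered 6, or 5 to 6. It was 8 and 6 with a −log10 q of at least 10 and with either replicate alone. For endothelial or neural claudins the count of 1 was 0 when the principal TSS itself had to be under a peak, a criterion chosen after seeing the data, and 1 otherwise. The median fold enrichment over epithelial claudins with a TSS peak (61.0) became 79.3 within 100 bp and 70.9 within 3 kb of a TSS, 42.8 with the most 5′ TSS only, and 79.3 with the principal TSS under a peak. CLDN10 did not enter within 100 bp, with the most 5′ TSS only or with the principal TSS. By −log10 q, another scale, the median was 401.6. It was 58.7 to 63.4 with 1 replicate left out. Regions in both replicates (108) numbered 48 in gene bodies alone and 186 with 50 kb flanks, by construction, and either replicate alone gave 127 to 132 peaks. The mean share of peaks found again (86.5%) was 74.9% with a reciprocal overlap of 50%, and 83.3 to 89.8% by replicate. Of the values of single genes, CLDN5 was 8.00-fold and CLDN10 had no peak within 100 bp. CLDN4 was 4.29-fold and CLDN12 had no peak by the most 5′ TSS only, and within 3 kb CLDN7 was 62.6-fold and CLDN10 29.9-fold. Of 137 alternative values, 30 moved by more than the spread between replicates or by over 1.5 times, 21 of them values of single genes. The values are counts, folds, ranks and shares without a sign, so a reversal of direction was not possible.

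No paired analysis was possible because the study has a single condition and no result comes from a test. Peaks from 2 replicates of 1 line cannot show how claudin loci vary between lines or cultures, and a weak open site can fall below the threshold.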
